A study of Callithrix jacchus with 20 samples.

Results

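The 10 genes described here belong to the signalling pathway of leukaemia inhibitory factor (LIF). They are the receptor chains LIFR, OSMR and IL6ST, the kinase JAK1, the transcription factor STAT3, the inhibitors SOCS3 and SOCS2, and BCL3, PIM1 and GBX2, which are known as STAT3 targets in other pluripotent or cytokine-treated cells. They were chosen by name, all 10 were found among the 25102 genes of the count table, and all 10 passed the filter on low counts that left 15797 genes for the test. RNA was sequenced from DPZ_cjiPSC2, 1 line of induced pluripotent stem cells of the common marmoset (cjiPSCs), in 10 conditions with 2 biological replicates each. The cjiPSCs were cultured in TESR medium or in cjPSCM, and each culture was pre-induced towards pre-mesendoderm (pre-ME) with the GSK3 inhibitor CHIR and with (+ActA) or without (-ActA) activin A. Pre-ME of the cjPSCM cultures was then aggregated into embryoid bodies, from which marmoset primordial germ cell-like cells (cjPGCLCs) and somatic cells were sorted on day 4. Values of 2 libraries are given below with replicate 1 first.

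LIF binds LIFR, which pairs with IL6ST, also called gp130, and the kinases JAK1, JAK2 and TYK2 at these chains phosphorylate STAT3. STAT3 then enters the nucleus and switches on target genes, among them SOCS3, whose protein blocks the receptor complex and so closes a negative feedback loop. The pathway keeps mouse pluripotent stem cells undifferentiated, and LIF is commonly added to cultures of naive pluripotent stem cells and to media for the induction of PGCLCs. In this study LIF was a listed component of cjPSCM and of the embryoid body medium, which also held BMP4, SCF and EGF, but not of the pre-ME medium. The study's media table gives TESR as a commercial product without its components. Since the media also differed in other components and the cells differed in state, an effect of LIF cannot be told apart from these. The libraries measure poly(A) RNA, in which phosphorylated STAT3, the active form, is not seen.

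Between 4784964 and 22067099 reads per library were counted on genes, and 3 counts, the smallest number treated as detected, stood for 1.40 to 6.92 normalised counts. Pre-ME libraries had 18858625 to 22067099 reads from TESR and 8193936 to 17491325 from cjPSCM cultures. Reads outside genes were 10.6% and 13.3% in TESR cjiPSCs, 12.2% and 19.3% in cjPSCM cjiPSCs and 17.2% to 23.2% in the others. The pre-ME libraries from TESR cultures also have sample numbers apart from all others, and the labels do not say whether they were prepared separately. Comparisons of pre-ME between media and with cjiPSCs also hold these differences in reads and any such difference in preparation. Their part was not tested. Replicates differed most in the cjiPSCs. The log2 difference between replicates had an SD over genes of 0.914 in cjPSCM and 0.570 in TESR medium, against 0.264 to 0.446 in the other 8 conditions. CDH5, a gene of endothelial cells, had 11857 and 3403 normalised counts in the cjPSCM cultures and 671 and 619 in TESR medium. The blood cell gene PTPRC was at 0 in these 4 libraries. Summed with KDR, a further endothelial gene, both had between 6961 and 16838 normalised counts in cjPSCM and between 5801 and 7226 in TESR medium. Most of the TESR sum was thus KDR, which was not particular to the cjPSCM cultures. TBXT, the defining gene of mesendoderm, had 2 and 0 counts in pre-ME + ActA and 1 and 1 counts in pre-ME - ActA from cjPSCM cultures, and so was near absent there. Of the other pre-ME genes, CDX1 had 678 and 449 and 199 and 147 normalised counts against 3.77 and 1.48 in the cjiPSCs. CDX2 had 197 and 139 and 27.7 and 29.7 against 0 and 1.48. EOMES, which the paper reports as up-regulated with ActA and not without, was above the cjiPSCs with ActA but remained at a low level. It had 39.2 and 22.5 + ActA and 8.84 and 3.96 - ActA against 4.71 and 1.48. All of these were far below the TESR cjiPSCs (329 and 536). MIXL1 had 19.2 and 11.2 + ActA and 4.13 and 4.95 - ActA, the latter below the cjiPSCs (10.4 and 5.93). Of 5 germ cell genes, SOX17, with 913 and 1034 normalised counts in cjPGCLCs + ActA and 2152 and 2096 - ActA, and NANOS3, with 42.3 and 14.2 and 61.5 and 44.1, were higher in each cjPGCLC library than in all others. PRDM1, with 221 and 196 and 288 and 279, was above the somatic cells but below the cjPSCM cjiPSCs (1175 and 821). TFAP2C, with 113 and 114 and 100.2 and 126, was above the somatic cells and overlapped with the cjPSCM cjiPSCs (213 and 60.8), and KIT, with 817 and 914 and 932 and 1141, was below the somatic cells with ActA (1096 and 1309) and overlapped with them without (749 and 965). SOX17 is not particular to germ cells, as the paper proposes that SOX17-positive cells with few other germ cell markers may be endodermal. The endoderm gene FOXA2 was also higher in cjPGCLCs than in somatic cells, as given below. In a RefSeq annotation of another marmoset assembly, calJac240_pri, 4 of the 10 genes, LIFR, OSMR, JAK1 and SOCS2, have another gene annotated over them. As the strand setting of the counting is not given in the sources used here, the counts of these 4 could hold or lack reads of those genes. The part of other cell types in the results below was not tested, and in RNA from many cells a change in the number of cells of a type and a change of RNA per cell cannot be told apart.

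**Figure D1:**
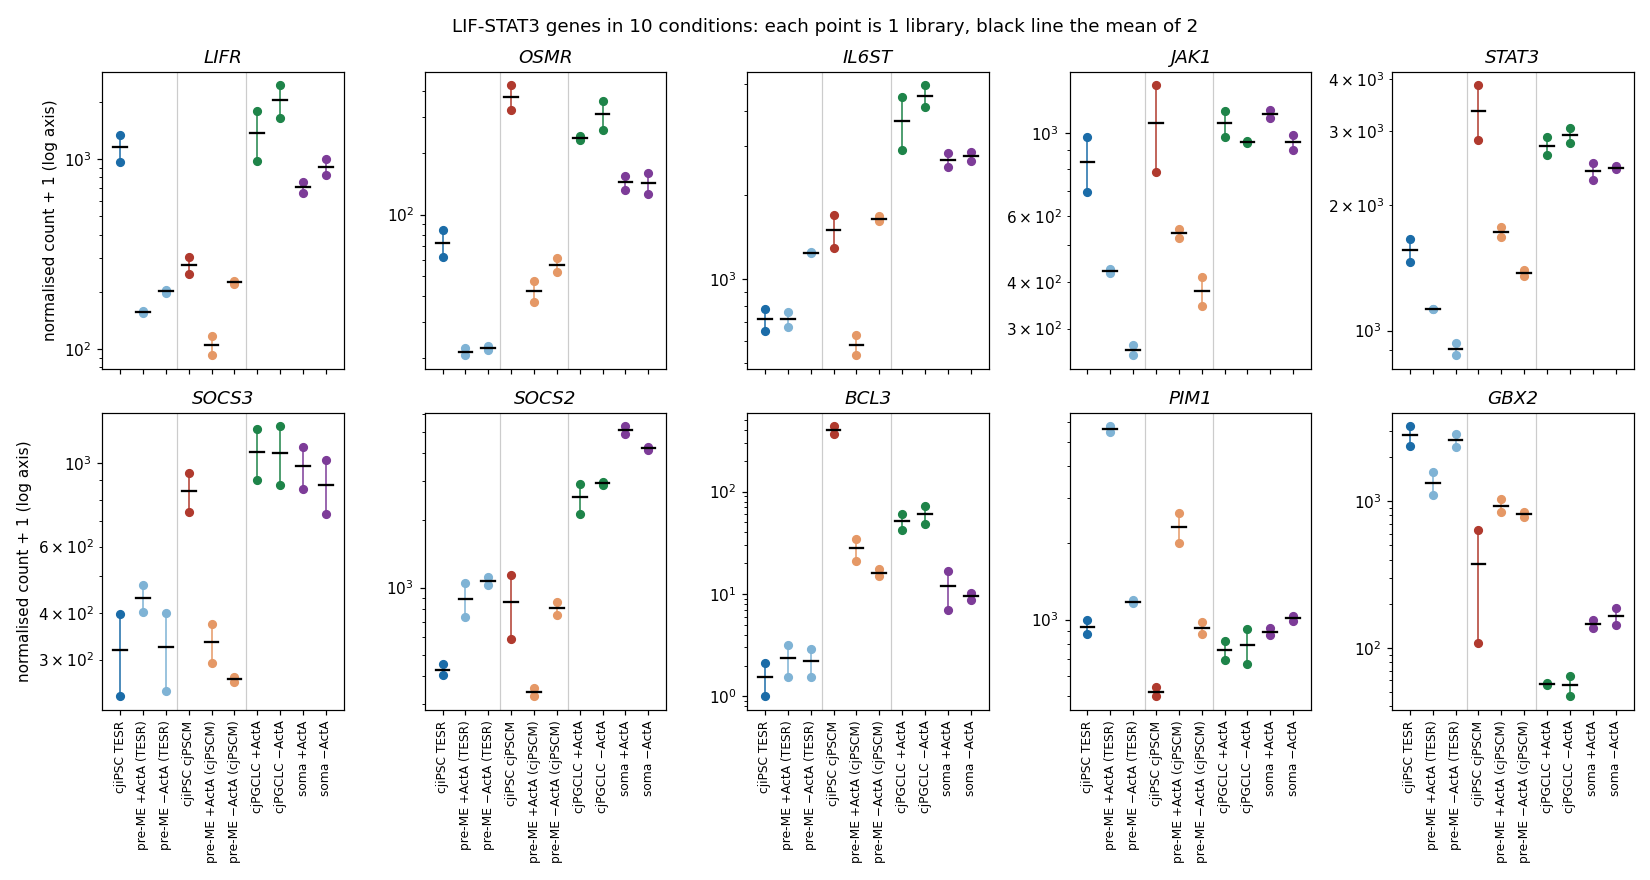
Normalised counts of the 10 genes (vertical axis, log scale, with 1 added) in the 10 conditions (horizontal axis). Each point is 1 library, the black line is the mean of 2, and colours mark TESR cjiPSCs, cjPSCM cjiPSCs, their pre-ME in lighter tones, cjPGCLCs and somatic cells. SOCS3, STAT3 and OSMR were higher in the cjPSCM cjiPSCs and the sorted cells than in all other libraries, and GBX2 was lower there.

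The comparison of cjiPSCs in cjPSCM with those in TESR medium asks how the culture medium shifts the pathway. OSMR, IL6ST, STAT3, SOCS3, SOCS2 and BCL3 were higher in cjPSCM, and LIFR, PIM1 and GBX2 were lower. JAK1 did not pass the test, with a log2 fold change of 0.33 (adjusted p = 0.223). Thus 9 of 10 genes passed at an adjusted p under 0.05, where 36.2% of all genes tested did, 6 higher (all genes 18.1%) and 3 lower (18.1%). The median log2 fold change of the 10 genes was 1.01, against -0.00044 over all genes tested. A log2 fold change beyond 2, the threshold of the study, was passed by 4 genes, BCL3, OSMR, LIFR and GBX2 (all genes 9.18%).

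The receptor chains went in different directions. LIFR, a chain that LIF binds, had 1338 and 966 normalised counts in TESR medium and 246 and 305 in cjPSCM. Both cjPSCM cultures were thus below both TESR cultures, with a log2 fold change of -2.10 ± 0.26 (SE, adjusted p = 8.08e-06), where SE is the standard error. OSMR, which pairs with IL6ST for oncostatin M, had 83.2 and 61.1 normalised counts in TESR medium and 426 and 322 in cjPSCM, a log2 fold change of 2.32 ± 0.23 (SE, adjusted p = 8.35e-07). IL6ST, the chain that LIF, oncostatin M and the interleukin-6 family share, rose from 776 and 651 to 1696 and 1285, a log2 fold change of 1.04 ± 0.19 (SE, adjusted p = 0.000431). The libraries of both media did not overlap for any of the 3 receptor genes, nor for 30 of 45 further JAK-STAT genes tested. The share of all genes without overlap was not recorded, and with 2 libraries per medium such a separation alone is weak support.

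STAT3 rose from 1656 and 1455 normalised counts in TESR medium to 3866 and 2861 in cjPSCM, a log2 fold change of 1.09 ± 0.14 (SE, adjusted p = 1.23e-05). JAK1, with 970.1 and 694 and 1337 and 783, overlapped between the media. Its second cjPSCM culture lay between both TESR cultures, and without that library JAK1 passed the test with a log2 fold change of 0.67 (adjusted p = 0.00443). SOCS3, the feedback inhibitor of the LIF receptor complex, had 239 and 395 normalised counts in TESR medium and 942 and 741 in cjPSCM, a log2 fold change of 1.43 ± 0.28 (SE, adjusted p = 0.000740). The lower cjPSCM culture was well above the higher TESR culture. SOCS2, an inhibitor best known from growth hormone signalling through STAT5, had 403 and 451 and 587 and 1143, a log2 fold change of 0.99 ± 0.23 (SE, adjusted p = 0.00335). The cjPSCM replicates of SOCS2 were far apart, and without replicate 2 the log2 fold change was 0.47 and no longer passed (adjusted p = 0.0679).

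BCL3, which encodes a nuclear cofactor of NF-kappaB, was near absent in TESR medium and clearly detected in cjPSCM. It had 2 and 0 counts in the TESR cultures and 459 and 248 in the cjPSCM cultures, or 432 and 368 normalised counts in the latter. The ratio of the depth-adjusted pooled counts was 506, with an exact 95% interval of 139.6 to 4189 that covers counting error only, and the test gave an adjusted p of 1.11e-08. PIM1, a serine/threonine kinase gene, had 873 and 993 normalised counts in TESR medium and 542 and 498 in cjPSCM, so that the log2 fold change was -0.86 ± 0.16 (SE, adjusted p = 0.000483). GBX2, a homeobox gene of the early neural plate, had 2387 and 3231 and 107 and 639, a log2 fold change of -2.98 ± 0.46 (SE, adjusted p = 9.57e-05). GBX2 differed several-fold between the cjPSCM cultures, and both were below the TESR cultures. Its log2 fold change was -2.17 without cjPSCM replicate 1 and -4.70 without replicate 2.

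Pre-induction asks which of these genes change as cjiPSCs leave their maintenance medium. From cjPSCM cultures to pre-ME + ActA, PIM1 and GBX2 rose, and the other 8 genes fell. All 10 thus passed the test, against 17.7% of all genes, 2 higher (all genes 7.42%) and 8 lower (10.3%). The median log2 fold change of the 10 was -1.32, against -0.00039 over all genes tested. From cjPSCM cultures to pre-ME - ActA, 7 of 10 passed, against 38.0%, with PIM1 and GBX2 higher (all genes 17.9%) and BCL3, OSMR, SOCS3, JAK1 and STAT3 lower (20.1%). The cjPSCM cultures are shared by both comparisons. When only the 4 libraries of the + ActA comparison were fitted, 3 of its 10 genes passed, and the share of all genes was not recorded. The summed counts of the endothelial and blood genes CDH5, KDR and PTPRC moved in the same direction as most of the 10, from 16838 and 6961 in the cjPSCM cultures to between 3743 and 3805 in pre-ME + ActA and between 1128 and 1436 in pre-ME - ActA. PTPRC had at most 3 counts in each library of the cjPSCM cultures and of pre-ME + ActA. Their part in the result was not tested.

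**Figure D2:**
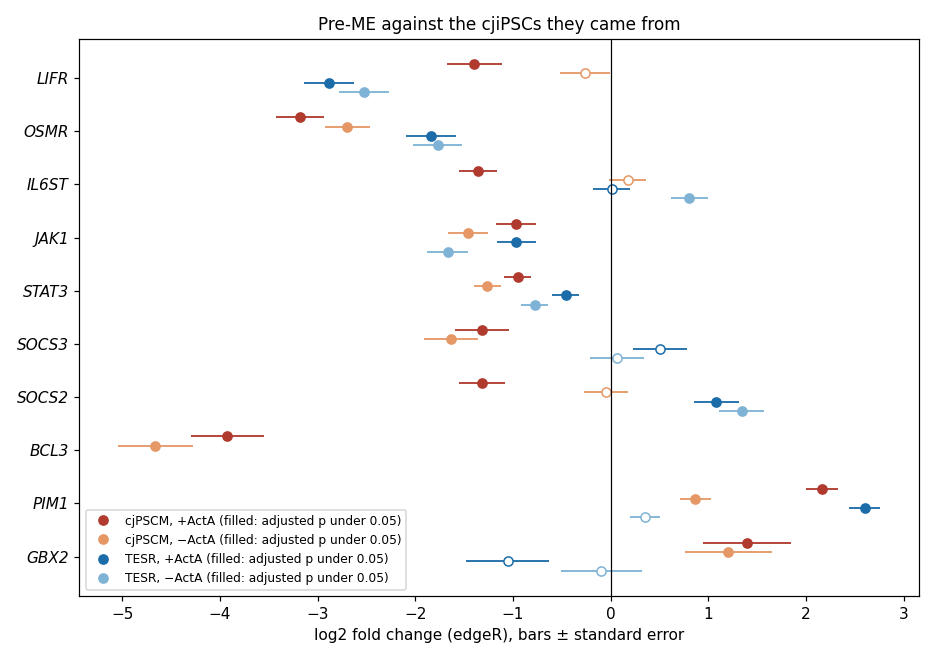
Log2 fold change (horizontal axis) of pre-ME against the cjiPSCs they came from, for cjPSCM and TESR cultures with and without ActA. Bars are standard errors, filled points passed an adjusted p of 0.05, and BCL3 in TESR cultures is left out because it had at most 4 counts per library. SOCS3 lies to the left of 0 in cjPSCM cultures and to the right in TESR cultures, SOCS2 lies to the right in TESR cultures, and OSMR, JAK1 and STAT3 lie to the left in all 4.

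In pre-ME from cjPSCM cultures, LIFR had 91.8 and 117 normalised counts + ActA and 227 and 219 - ActA. Its log2 fold change against the cjiPSCs was -1.40 ± 0.28 (SE, adjusted p = 0.00259) with ActA and -0.26 (adjusted p = 0.444) without, which did not pass. OSMR had 36.7 and 46.3 normalised counts + ActA and 60.7 and 51.5 - ActA, far below both cjPSCM cultures in each case, with log2 fold changes of -3.18 ± 0.25 (SE, adjusted p = 5.55e-07) and -2.70 ± 0.23 (SE, adjusted p = 6.55e-07). IL6ST had 531 and 626 and 1676 and 1611. It fell with ActA, by a log2 fold change of -1.36 (adjusted p = 0.000152), while without ActA its libraries lay within the range of the cjPSCM cultures (0.17 (adjusted p = 0.486)).

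JAK1 had 552 and 524 normalised counts in pre-ME + ActA and 411 and 343 in pre-ME - ActA, below both cjPSCM cultures, with log2 fold changes of -0.97 (adjusted p = 0.00371) and -1.46 (adjusted p = 6.75e-05). Without replicate 1 of the cjPSCM cultures the former no longer passed (log2 fold change -0.51, adjusted p = 0.0954). STAT3 had 1679 and 1765 and 1394 and 1350.3, log2 fold changes of -0.95 (adjusted p = 0.000173) and -1.26 (adjusted p = 7.16e-06). Its pre-ME libraries did not overlap with those of the cjiPSCs. SOCS3 had 372 and 294 normalised counts + ActA and 269 and 261 - ActA, with log2 fold changes of -1.32 (adjusted p = 0.00346) and -1.64 (adjusted p = 0.000314). All 4 pre-ME libraries had less than the lower cjPSCM culture. SOCS2 had 353 and 324 and 861 and 753, and it fell with ActA (-1.32 (adjusted p = 0.00111)) but not detectably without (-0.05 (adjusted p = 0.878)).

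BCL3 had 20.03 and 33.7 normalised counts in pre-ME + ActA and 16.5 and 13.9 in pre-ME - ActA. The log2 fold changes of -3.92 (adjusted p = 3.51e-06) and -4.66 (adjusted p = 4.99e-07) were the furthest from 0 of the 10 genes in both comparisons. PIM1 had 2613 and 1999.9 and 977 and 873, and it rose by 2.16 (adjusted p = 4.02e-07) and 0.86 (adjusted p = 0.000589) on the log2 scale. GBX2 had 1029 and 837 and 844 and 778, above both cjPSCM cultures, with log2 fold changes of 1.39 (adjusted p = 0.0412) and 1.21 (adjusted p = 0.0428). The size of the rise of GBX2 turned on the cjPSCM replicates. With ActA it was 0.58 (adjusted p = 0.141) without replicate 1 and 3.12 (adjusted p = 2.77e-07) without replicate 2, and without ActA 0.40 (adjusted p = 0.216) and 2.93 (adjusted p = 2.29e-07). With ActA, leaving out replicate 1 of the pre-ME also ended the call of GBX2 (adjusted p = 0.211) and that of LIFR (adjusted p = 0.0597).

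From TESR cultures, 6 of 10 genes passed in pre-ME + ActA, against 34.5% of all genes, and 6 of 10 in pre-ME - ActA, against 36.6%. LIFR, OSMR, JAK1 and STAT3 fell in both (all genes lower, 17.1% and 19.2%) and SOCS2 rose in both, joined by PIM1 with ActA and by IL6ST without (all genes higher, 17.3% and 17.4%). LIFR had 157 and 154 normalised counts + ActA and 204 and 196 - ActA, with log2 fold changes of -2.88 (adjusted p = 8.18e-07) and -2.52 (adjusted p = 2.05e-06). OSMR had 21.3 and 19.6 and 20.8 and 21.99, log2 fold changes of -1.84 (adjusted p = 5.27e-05) and -1.77 (adjusted p = 6.30e-05), and these were its lowest levels in the study. IL6ST had 762 and 670.3 and 1233 and 1249. Its libraries with ActA lay within the range of the TESR cultures, and those without ActA were above, with log2 fold changes of 0.01 (adjusted p = 0.980) and 0.80 (adjusted p = 0.00340).

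JAK1 had 432 and 420.4 and 269.9 and 254 normalised counts in pre-ME + ActA and - ActA of TESR cultures, with log2 fold changes of -0.97 (adjusted p = 0.00170) and -1.67 (adjusted p = 1.87e-05). STAT3 had 1124 and 1124 and 930.5 and 872, with log2 fold changes of -0.46 (adjusted p = 0.0160) and -0.78 (adjusted p = 0.000405). The former did not pass without replicate 1 of the TESR cultures (adjusted p = 0.102). SOCS3 had 473 and 401 and 398 and 247, close to the TESR cultures, with log2 fold changes of 0.51 (adjusted p = 0.166) and 0.07 (adjusted p = 0.880) that did not pass. SOCS2 had 1045 and 739.9 and 1113 and 1023, above both TESR cultures, with log2 fold changes of 1.08 (adjusted p = 0.00196) and 1.34 (adjusted p = 0.000337). BCL3 had 4 and 1 and 1 and 4 counts, as low as in the TESR cultures, and no fold change is given. PIM1 had 5440.4 and 5746 and 1192 and 1159.8, with log2 fold changes of 2.60 (adjusted p = 1.33e-08) and 0.35 (adjusted p = 0.0866). GBX2 had 1104 and 1569 and 2349 and 2848, and its log2 fold changes of -1.06 (adjusted p = 0.0629) and -0.10 (adjusted p = 0.885) did not pass. The former passed without replicate 1 of the cjPSCM cjiPSCs (adjusted p = 0.000112), and likewise without replicate 2, and without a filter both it and SOCS3 with ActA did (adjusted p = 4.43e-08 and 0.0165).

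Whether pre-induction acted differently in both media was tested as an interaction, the log2 fold change of cjPSCM cultures minus that of TESR cultures. The same value is the difference between the media in pre-ME minus that in cjiPSCs. It thus also holds the difference between the cjiPSCs given above and is not separate from it. With ActA, LIFR, SOCS3 and GBX2 did not pass between pre-ME of both media in the fit to all libraries. With ActA, 7 of 10 genes passed, against 6.20% of all genes, and without ActA 4 of 10, against 6.54%. The difference was negative for SOCS3, with -1.82 (adjusted p = 0.0105) with ActA and -1.70 (adjusted p = 0.0145) without, and for SOCS2, with -2.40 (adjusted p = 0.000453) and -1.39 (adjusted p = 0.0162). It was positive for LIFR, with 1.49 (adjusted p = 0.0267) and 2.26 (adjusted p = 0.00135), where the fall was larger in TESR cultures. IL6ST (-1.37 (adjusted p = 0.00603)), OSMR (-1.34 (adjusted p = 0.0340)) and GBX2 (2.45 (adjusted p = 0.0265)) passed with ActA and not without, and for BCL3 the difference passed in both but rests on TESR libraries with at most 4 counts. For JAK1, STAT3 and PIM1 no difference passed, with adjusted p-values of at least 0.150. Without replicate 2 of the cjPSCM cultures STAT3 passed, with -0.71 (adjusted p = 0.00756) and -0.70 (adjusted p = 0.00933), and so did, without ActA, IL6ST (-0.83, adjusted p = 0.0445), OSMR (-1.11, adjusted p = 0.0358) and GBX2 (3.02, adjusted p = 9.91e-06). Fitted on the 8 libraries of each interaction alone, 1 of 10 genes passed with ActA and 1 without, and the share of all genes was not recorded.

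Activin A activates the SMAD2/3 branch of TGF-beta signalling and was the only listed difference between the 2 kinds of pre-ME. PIM1 was higher with ActA in pre-ME from both media, and IL6ST was lower in both. In pre-ME from cjPSCM cultures 4 of 10 genes passed, against 20.9% of all genes, with PIM1 higher (all genes 11.4%) and IL6ST, LIFR and SOCS2 lower (9.54%). In pre-ME from TESR cultures 3 of 10 passed, against 8.84%, with PIM1 and JAK1 higher (5.63%) and IL6ST lower (3.20%). The PIM1 libraries with ActA, 2613 and 1999.9 normalised counts from cjPSCM and 5440.4 and 5746 from TESR cultures, were above all 4 libraries without ActA, 977 and 873 and 1192 and 1159.8, with log2 fold changes of 1.30 ± 0.16 (SE, adjusted p = 4.37e-05) and 2.25 ± 0.16 (SE, adjusted p = 2.85e-07). These 4 were also the 4 highest PIM1 libraries among all 20.

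**Figure D3:**
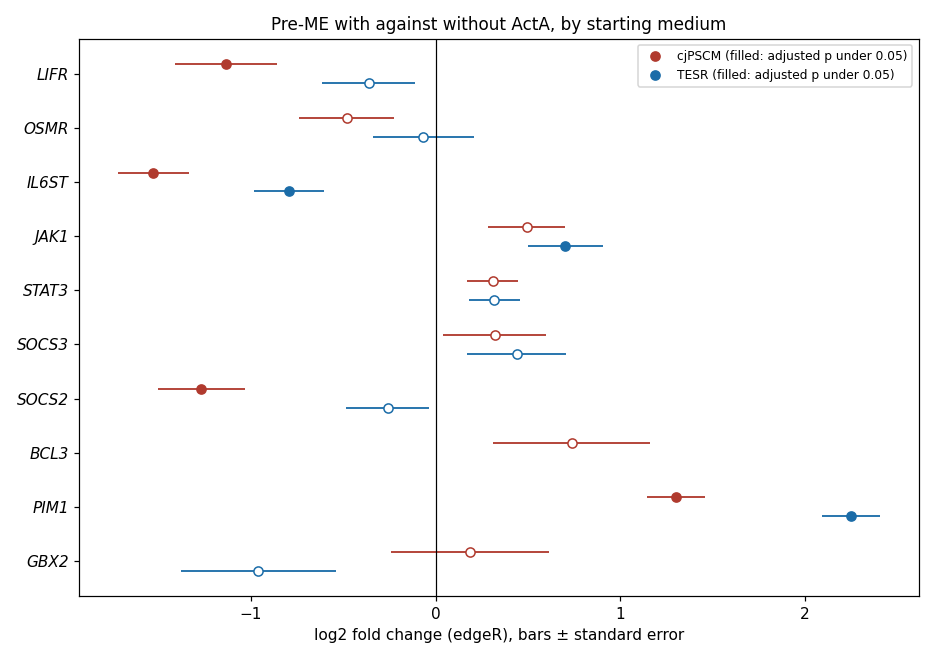
Log2 fold change (horizontal axis) of pre-ME with against without ActA in cjPSCM and TESR cultures. Bars are standard errors and filled points passed an adjusted p of 0.05, and BCL3 in TESR cultures is left out because it had at most 4 counts per library. PIM1 lies to the right and IL6ST to the left of 0 in both media.

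IL6ST was lower with ActA by a log2 fold change of -1.53 ± 0.19 (SE, adjusted p = 7.00e-05) in cjPSCM and -0.79 ± 0.19 (SE, adjusted p = 0.0112) in TESR cultures. In both media its libraries with and without ActA did not overlap. The latter call was lost without replicate 2 of the TESR pre-ME + ActA (adjusted p = 0.132). LIFR (-1.13 (adjusted p = 0.0101)) and SOCS2 (-1.27 (adjusted p = 0.00175)) were lower with ActA in pre-ME from cjPSCM. In pre-ME from TESR their log2 fold changes, -0.36 (adjusted p = 0.505) and -0.26 (adjusted p = 0.620), did not pass. JAK1, with a log2 fold change of 0.70 (adjusted p = 0.0406) in TESR cultures, no longer passed without replicate 2 of the TESR pre-ME - ActA (adjusted p = 0.270), and LIFR in cjPSCM cultures no longer passed without replicate 1 of the pre-ME + ActA (adjusted p = 0.143). Leaving out any of the 4 pre-ME libraries from TESR cultures left 1 of the 3 calls there. Besides, JAK1 and STAT3 in pre-ME from cjPSCM (adjusted p = 0.0196 and 0.0354) and GBX2 in pre-ME from TESR (0.000799), which did not pass, did so without replicate 1 of the cjPSCM cjiPSCs, and likewise without replicate 2. The interaction of ActA and medium passed for 0 of 10 genes with edgeR on all libraries, against 0.399% of all genes. At an unadjusted p under 0.05 in that test were 3 of 10, against 2747 of all 15797 genes. DESeq2 called 1 gene, edgeR without a filter 4 and edgeR on the 8 libraries of the interaction 5. The shares of all genes in these fits were not recorded. The nearest was PIM1 with -0.95 ± 0.22 (SE, adjusted p = 0.0650), where the negative sign stands for a smaller effect in cjPSCM cultures.

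A comparison of pre-ME between the starting media asks how much of the difference between the cjiPSCs was still seen after pre-induction. BCL3, OSMR and STAT3 were higher in pre-ME from cjPSCM cultures both with and without ActA. With ActA 5 of 10 genes passed, against 27.4% of all genes, and without ActA 4 of 10, against 14.0%. For OSMR the log2 fold changes were 0.98 (adjusted p = 0.0154) and 1.40 (adjusted p = 0.00105), and for STAT3 0.60 (adjusted p = 0.00461) and 0.61 (adjusted p = 0.00554). BCL3 had 18.6 times the depth-adjusted pooled counts of the TESR route with ActA (exact 95% interval 7.46 to 60.03, counting error only) and 12.3 times without (4.87 to 39.8). SOCS3 did not pass, with -0.40 (adjusted p = 0.291) and -0.28 (adjusted p = 0.573). With ActA, PIM1 (-1.29 (adjusted p = 1.72e-05)) and SOCS2 (-1.41 (adjusted p = 0.000418)) were lower in pre-ME from cjPSCM, and without ActA GBX2 was (-1.68 (adjusted p = 0.0132)). With 1 library left out, the calls of OSMR with ActA (adjusted p = 0.107 without pre-ME + ActA cjPSCM replicate 2), of STAT3 without ActA (0.0743 without pre-ME - ActA TESR replicate 2) and of GBX2 (0.126 without pre-ME - ActA cjPSCM replicate 2) were lost. Without replicate 1 of the cjPSCM cjiPSCs GBX2 with ActA (adjusted p = 0.0249) passed as lower, and without replicate 2 JAK1 without ActA (0.0152) as higher, and both also passed without the other replicate. Fitted on the 4 libraries of each comparison alone, 10 of 10 genes passed with ActA and 7 of 10 without. The share of all genes that passed in these fits was not recorded.

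The sorted cells of day 4 were compared with the pre-ME they came from. LIFR, OSMR, IL6ST, JAK1, STAT3, SOCS3 and SOCS2 were higher in cjPGCLCs and in somatic cells, with and without ActA, and GBX2 was lower in all 4 comparisons. In cjPGCLCs + ActA 10 of 10 genes passed, against 48.4% of all genes, 8 higher (all genes 25.3%) and 2 lower (23.0%). In cjPGCLCs - ActA 9 of 10 passed, against 40.0%, 8 higher (21.5%) and 1 lower (18.5%). In somatic cells 10 of 10 passed + ActA, against 48.0%, 7 higher (23.8%) and 3 lower (24.2%), and 8 of 10 - ActA, against 42.2%, 7 higher (20.6%) and 1 lower (21.7%). The median log2 fold changes of the 10 genes were 1.33 and 1.65 in cjPGCLCs and 1.30 and 1.05 in somatic cells, with and without ActA, against between 0 and 0.04 over all genes tested. The cjPGCLC and somatic comparisons of an ActA condition share the pre-ME libraries.

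**Figure D4:**
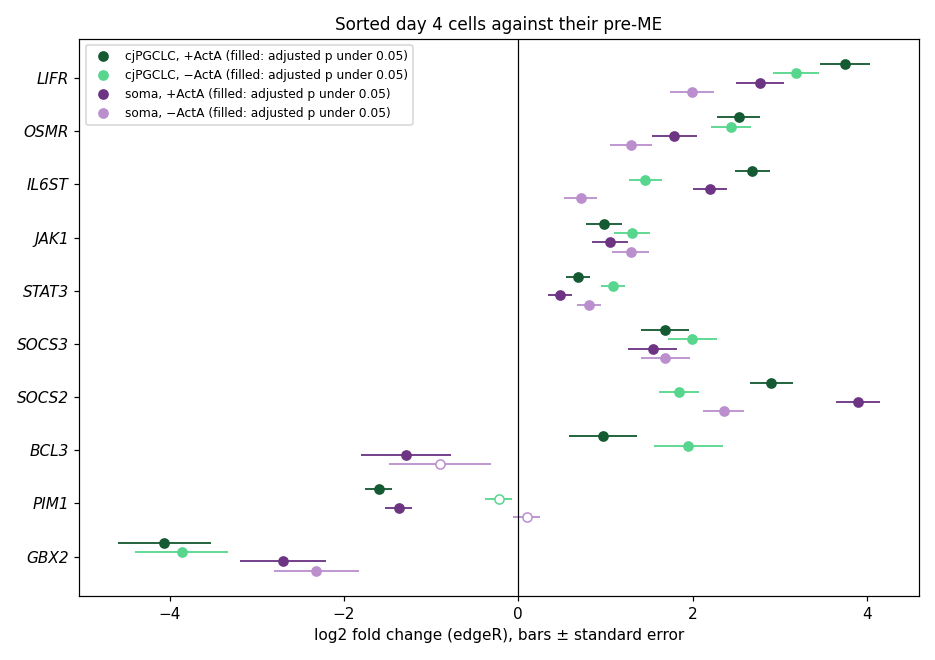
Log2 fold change (horizontal axis) of cjPGCLCs and somatic cells against their pre-ME, with and without ActA. Bars are standard errors and filled points passed an adjusted p of 0.05. LIFR, OSMR, IL6ST, JAK1, STAT3, SOCS3 and SOCS2 lie to the right of 0 in all 4 comparisons, GBX2 lies to the left, and BCL3 is to the right in cjPGCLCs and to the left in somatic cells.

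LIFR had 1781 and 969.7 normalised counts in cjPGCLCs + ActA and 2436 and 1645 in cjPGCLCs - ActA, and 753 and 662 and 994 and 825 in the somatic cells. All 8 libraries were several-fold above the pre-ME, and the log2 fold changes of cjPGCLCs were 3.75 ± 0.28 (SE, adjusted p = 5.30e-08) and 3.18 ± 0.26 (SE, adjusted p = 1.18e-07), the largest rise of the 10 genes in both. In somatic cells they were 2.77 and 1.99. OSMR had 241 and 230.3 and 358 and 257 in cjPGCLCs, with log2 fold changes of 2.53 (adjusted p = 7.46e-07) and 2.44 (adjusted p = 5.83e-07), and 154 and 131 and 159 and 125 in somatic cells, with 1.79 (adjusted p = 3.16e-05) and 1.29 (adjusted p = 0.000460). IL6ST had 4490.4 and 2898 and 4947 and 4135 in cjPGCLCs and 2824 and 2515 and 2652 and 2856 in somatic cells. Its rise was larger from pre-ME + ActA, with log2 fold changes of 2.68 (adjusted p = 4.62e-08) and 2.20 (adjusted p = 2.77e-07), than from pre-ME - ActA, with 1.45 (adjusted p = 1.62e-05) and 0.72 (adjusted p = 0.00554), and the difference between these was not tested. The call of IL6ST in somatic cells - ActA was lost without their replicate 2 (adjusted p = 0.0532).

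JAK1 had 1141 and 974 and 946 and 939 normalised counts in cjPGCLCs and 1091 and 1149 and 899 and 982 in somatic cells. Its log2 fold changes over the 4 comparisons lay between 0.98 and 1.31, with adjusted p-values of at most 0.000937. STAT3 had 2907 and 2630.4 and 3054 and 2810.0 in cjPGCLCs and 2518 and 2297 and 2431 and 2478 in somatic cells, with log2 fold changes from 0.48 (adjusted p = 0.00908) to 1.08 (adjusted p = 1.42e-05). Every sorted library of STAT3 exceeded every pre-ME library, although the rise in somatic cells + ActA no longer passed without their replicate 1 (adjusted p = 0.0886). SOCS3 had 1236 and 903 and 1252 and 872 in cjPGCLCs and 1105 and 854 and 1017 and 730.2 in somatic cells, with log2 fold changes from 1.54 (adjusted p = 0.000273) to 1.997 (adjusted p = 3.33e-05). All 8 sorted libraries exceeded the 4 of the pre-ME. SOCS2 had 2143 and 2929 and 2979 and 2881 in cjPGCLCs and 4894 and 5282 and 4276 and 4159 in somatic cells, with log2 fold changes from 1.85 (adjusted p = 1.12e-05) to 3.90 (adjusted p = 1.06e-08).

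BCL3 had 59.2 and 41.2 and 70.6 and 47.3 normalised counts in cjPGCLCs, above the pre-ME, with log2 fold changes of 0.97 (adjusted p = 0.0496) and 1.95 (adjusted p = 0.000881). In somatic cells it had 15.9 and 5.96 and 9.22 and 7.74, that is, 9 and 4 and 4 and 5 counts, with log2 fold changes of -1.29 (adjusted p = 0.0498) and -0.90 (adjusted p = 0.231). Both calls of BCL3 with ActA were near the threshold and were lost without 1 library, in cjPGCLCs without pre-ME + ActA replicate 1 (adjusted p = 0.368) and in somatic cells without their replicate 2 (adjusted p = 0.384). PIM1 had 822 and 692 and 918 and 669.8 in cjPGCLCs and 924 and 868 and 1031 and 989 in somatic cells. It fell from pre-ME + ActA, with log2 fold changes of -1.60 (adjusted p = 8.00e-07) and -1.37 (adjusted p = 3.62e-06), and did not pass from pre-ME - ActA, with -0.23 (adjusted p = 0.266) and 0.10 (adjusted p = 0.654). GBX2 had 54.9 and 56.9 and 63.03 and 45.7 in cjPGCLCs and 154 and 136 and 143 and 186 in somatic cells, with log2 fold changes of -4.06 (adjusted p = 1.51e-05) and -3.86 (adjusted p = 2.94e-05) in the former and -2.70 (adjusted p = 0.000309) and -2.32 (adjusted p = 0.00123) in the latter. No sorted library of GBX2 reached the level of any pre-ME library. The summed normalised counts of the amnion-like genes GATA3, TFAP2A, ISL1, VTCN1 and GABRP were between 4861 and 7580.3 in the sorted libraries and between 686 and 966 in the pre-ME from cjPSCM, and those of the fibroblast genes COL1A1, COL1A2, DCN and LUM were between 3165 and 15491 against 882 to 1741. Those of the endoderm genes FOXA2, AFP and GATA4 were between 692 and 3859.5 against 16.9 to 37.6, most of it from GATA4, while FOXA2 and AFP had at most 2 counts in each somatic library. The paper also names GATA3 and TFAP2A among primordial germ cell genes that are up-regulated in human and marmoset PGCLCs. The sum with them is thus not particular to amnion-like cells. The part of the amnion-like, fibroblast and endoderm genes in the results was not tested.

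The sort of day 4 cells separated cjPGCLCs from somatic cells by surface proteins, for which the study's methods give INTa6 and CXCR4 and the labels also EpCAM. BCL3 and LIFR were higher in cjPGCLCs than in somatic cells both with and without ActA. With ActA 3 of 10 genes passed, against 4.84% of all genes, BCL3 and LIFR higher (all genes 3.68%) and SOCS2 lower (1.16%). Without ActA 4 of 10 passed, against 9.63%, all of them higher (6.67%), and these were BCL3, LIFR, OSMR and IL6ST. BCL3 had log2 fold changes of 2.26 ± 0.48 (SE, adjusted p = 0.0101) and 2.85 ± 0.51 (SE, adjusted p = 0.00152), and its cjPGCLC libraries had 29 counts or more where those of somatic cells had 9 or fewer. LIFR had log2 fold changes of 0.98 ± 0.24 (SE, adjusted p = 0.0266) and 1.19 ± 0.24 (SE, adjusted p = 0.00408), and the libraries of both cell types did not overlap in either condition. OSMR had 0.74 (adjusted p = 0.0765) and 1.15 (adjusted p = 0.00311), and IL6ST 0.48 (adjusted p = 0.183) and 0.74 (adjusted p = 0.0169). SOCS2 had -0.996 (adjusted p = 0.0141) and -0.51 (adjusted p = 0.193).

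JAK1, STAT3, SOCS3, PIM1 and GBX2 did not pass in either sort in the fit to all libraries. Their log2 fold changes lay between -1.55 and 0.31. For GBX2 the spread in that fit also included the cjPSCM cjiPSCs, with 107 and 639 normalised counts, which are not part of the sort. GBX2, with -1.36 (adjusted p = 0.244) and -1.55 (adjusted p = 0.114), did not overlap between the cell types, and it passed in both sorts without a filter, on the 4 libraries of the sort alone, and without either replicate of the cjPSCM cjiPSCs (adjusted p = 0.00314 and 0.000555 without replicate 1). Without either of these replicates OSMR with ActA (lowest adjusted p = 0.0272) and SOCS2 without ActA (0.0333) passed as well, and IL6ST with ActA did without cjPGCLC replicate 2 (0.0322). The log2 fold changes of SOCS3 were 0.14 (adjusted p = 0.890) and 0.31 (adjusted p = 0.590), and the cjPGCLC and somatic libraries overlapped. With ActA, none of the 3 calls held when somatic replicate 2 or cjPGCLC replicate 1 was left out and 1 when somatic replicate 1 was, with adjusted p-values of up to 0.224 for BCL3, 0.617 for LIFR and 0.260 for SOCS2. Without ActA, 1 of the 4 calls held when somatic replicate 2 or cjPGCLC replicate 1 was left out, with adjusted p-values of up to 0.0905 for LIFR, 0.0796 for OSMR and 0.177 for IL6ST, while BCL3 passed with every library left out. The summed fibroblast genes were lower in cjPGCLCs, with 6882 and 6957 normalised counts + ActA and 4242 and 3165 - ActA, against 15491 and 14168 and 14127 and 12521 in somatic cells. The endoderm gene FOXA2 was higher in cjPGCLCs, with 192 and 83.9 normalised counts + ActA and 518 and 356 - ActA, against 0 and 0 and 4.61 and 0 in somatic cells. The part of these other cell type genes in the differences was not tested. The interaction of sort and ActA passed for 0 of 10 genes with edgeR, against 0.0633% of all genes, and 0 were called by DESeq2. At an unadjusted p under 0.05 with edgeR were 0 of 10, against 987 of all 15797 genes.

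The sorted cells of day 4 were also compared by the ActA treatment of their pre-ME, and in the fit to all libraries no gene of the 10 passed. In cjPGCLCs 0 of 10 genes passed with edgeR, against 2.53% of all genes, and in somatic cells 0 of 10, against 0.0253%. At an unadjusted p under 0.05 with edgeR were 1 of 10 in cjPGCLCs, against 2117 of all 15797 genes. In somatic cells these were 0 of 10, against 617. DESeq2 called 0 in cjPGCLCs and 0 in somatic cells. PIM1, which was higher with ActA in pre-ME, had a log2 fold change of -0.08 ± 0.16 (SE, adjusted p = 0.952) in cjPGCLCs and -0.17 ± 0.16 (SE, adjusted p = 1.00) in somatic cells. IL6ST, which was lower with ActA in pre-ME, had -0.30 ± 0.18 (SE, adjusted p = 0.562) and -0.04 ± 0.19 (SE, adjusted p = 1.00). LIFR in cjPGCLCs, with -0.57 (adjusted p = 0.275), passed when no filter on low counts was used (adjusted p = 0.0330).

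The cjPGCLCs were also compared directly with the cjiPSCs in cjPSCM, which are conditions with LIF listed in the medium of both. LIFR, IL6ST, SOCS2 and PIM1 were higher in cjPGCLCs with and without ActA, and BCL3 and GBX2 were lower. Of the 10 genes 7 passed + ActA, against 50.9% of all genes, and 6 - ActA, against 52.5%. LIFR had log2 fold changes of 2.35 ± 0.26 (SE, adjusted p = 2.38e-06) and 2.92 ± 0.26 (SE, adjusted p = 2.65e-07), and IL6ST 1.33 (adjusted p = 3.19e-05) and 1.63 (adjusted p = 3.98e-06). SOCS3 (0.36 (adjusted p = 0.267) and 0.36 (adjusted p = 0.270)), STAT3 (-0.26 (adjusted p = 0.117) and -0.18 (adjusted p = 0.290)) and JAK1 (0.01 (adjusted p = 0.976) and -0.15 (adjusted p = 0.541)) did not pass, and the libraries of each overlapped with those of the cjiPSCs in at least 1 of the ActA conditions. Without replicate 2 of the cjPSCM cultures STAT3 passed as lower in cjPGCLCs, with -0.50 (adjusted p = 0.00305) and -0.41 (adjusted p = 0.0108). BCL3 had -2.95 (adjusted p = 5.16e-06) and -2.71 (adjusted p = 8.83e-06). GBX2 had -2.67 and -2.66, but -0.96 and -0.94 without replicate 2 of the cjPSCM cultures. OSMR passed only with ActA (-0.65 (adjusted p = 0.0171)) and not without replicate 1 of the cjPSCM cultures (adjusted p = 0.158). PIM1 had 0.56 (adjusted p = 0.00774) and 0.64 (adjusted p = 0.00322), and neither passed without replicate 1 of the respective cjPGCLCs (adjusted p = 0.101 and 0.101). JAK1 passed as lower in cjPGCLCs - ActA when replicate 2 of the cjPSCM cultures was left out (-0.51, adjusted p = 0.0164) and as higher in cjPGCLCs + ActA when replicate 1 was (0.47, adjusted p = 0.0476). Fitted on the 4 libraries of the comparison alone, 4 of 10 genes passed + ActA, and the share of all genes was not recorded.

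Across all 20 libraries, the 10 of the 5 conditions with LIF listed in their medium, cjiPSCs in cjPSCM and the 4 sorted groups, were set beside the other 10. This split by medium was chosen after the values were seen, it is a description and no test was made. STAT3 had at least 2297 normalised counts in every library of the former and at most 1765 in every library of the latter. For SOCS3 these values were 730.2 and 473, and for OSMR 125 and 83.2. GBX2 lay the other way, with at most 639 in the former and at least 778 in the latter. Thus 3 of the 10 genes were above in every library, where 1.79% of all genes tested were, and 1 was below, where 1.39% were. LIFR, IL6ST, JAK1, SOCS2, BCL3 and PIM1 overlapped between both sets. These sets also differ in cell state, and both cannot be told apart.

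The order of conditions by mean level differed between the genes. SOCS3 was highest in cjPGCLCs + ActA, at 1069 ± 235 normalised counts (SD, n = 2), followed by cjPGCLCs - ActA, somatic cells + ActA and - ActA and cjPSCM cjiPSCs, and neighbours in this order overlapped. A gap then separated pre-ME + ActA of TESR cultures, and the last 4, both pre-ME of cjPSCM cultures, pre-ME - ActA of TESR cultures and TESR cjiPSCs, overlapped again. The highest SOCS3 mean was 4.04 times the lowest. STAT3 went from cjPSCM cjiPSCs over cjPGCLCs and somatic cells to pre-ME - ActA of TESR cultures, with a highest mean 3.73 times the lowest, and from the sixth place on no neighbours overlapped. JAK1 went from somatic cells + ActA to pre-ME - ActA of TESR cultures, 4.28 times apart, with the 6 sorted and cjiPSC conditions above the 4 pre-ME conditions.

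LIFR was highest in cjPGCLCs - ActA, where it overlapped with cjPGCLCs + ActA, and lowest in pre-ME + ActA of cjPSCM cultures, with means 19.6 times apart. TESR cjiPSCs stood at the third place for LIFR, between the cjPGCLCs and the somatic cells - ActA, and overlapped with both. IL6ST had the same highest and lowest condition, 7.85 times apart. OSMR was highest in cjPSCM cjiPSCs, where it overlapped with cjPGCLCs - ActA, and lowest in pre-ME + ActA of TESR cultures, 18.2 times apart. SOCS2 was highest in somatic cells + ActA and lowest in pre-ME + ActA of cjPSCM cultures, 15.02 times apart, and its 4 highest conditions were the sorted groups. PIM1 was highest in pre-ME + ActA of TESR cultures and lowest in cjPSCM cjiPSCs, 10.8 times apart, and its 3 highest conditions were pre-ME without overlap between them. BCL3 was highest in cjPSCM cjiPSCs, without overlap with the cjPGCLCs that followed, and its 3 lowest conditions were those of TESR cultures. GBX2 was highest in TESR cjiPSCs, where it overlapped with pre-ME - ActA of TESR cultures, and lowest in cjPGCLCs - ActA, 51.7 times apart.

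The genes with the profile most like that of a member were sought over the 10 condition means of log2(normalised count + 1), among 13250 tested genes with a symbol. For SOCS3 these were APCDD1L (Pearson's r = 0.966), DUSP8 (0.960) and SLC38A3 (0.960). For BCL3 they included PPP1R13B (0.980) and CAPN1 (0.975), for LIFR PIK3IP1 (0.984), DCAF10 (0.975) and SERINC1 (0.967), and for GBX2 MCM3 (0.979), XPO6 (0.976) and GINS2 (0.973). Among the members, the closest pair was STAT3 and OSMR (r = 0.965). These correlations are descriptions over 10 conditions of 1 line that share pre-ME and cjiPSC sources.

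Beyond the 10 genes, 49 of 50 further genes of JAK-STAT signalling were in the table, and 45 of them were tested. Those with too few counts were the ligand genes LIF, IL6 and IL11 and the target gene TFCP2L1, and OSM had no entry. In cjiPSCs, 24 of the 45 passed between the media, against 36.2% of all genes, 19 higher in cjPSCM (18.1%) and 5 lower (18.1%). Their median log2 fold change was 0.28, against -0.00044 over all genes tested. By role, 10 of 14 target genes passed and all of these were higher, as were 3 of 3 kinases, while of 11 inhibitors 1 was higher and 4 lower. The 8 genes beyond a log2 fold change of 2 (all genes 9.18%) were all higher in cjPSCM. The 4 largest were CEBPD (3.72 (adjusted p = 2.42e-05)), a transcription factor of the acute phase response, KLF5 (3.67 (adjusted p = 1.05e-06)), a Krüppel-like factor of pluripotent cells, STAT5A (3.12 (adjusted p = 1.81e-08)), a STAT of cytokine and growth hormone receptors, and IER3 (2.997 (adjusted p = 5.43e-07)), an immediate early gene.

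**Figure D5:**
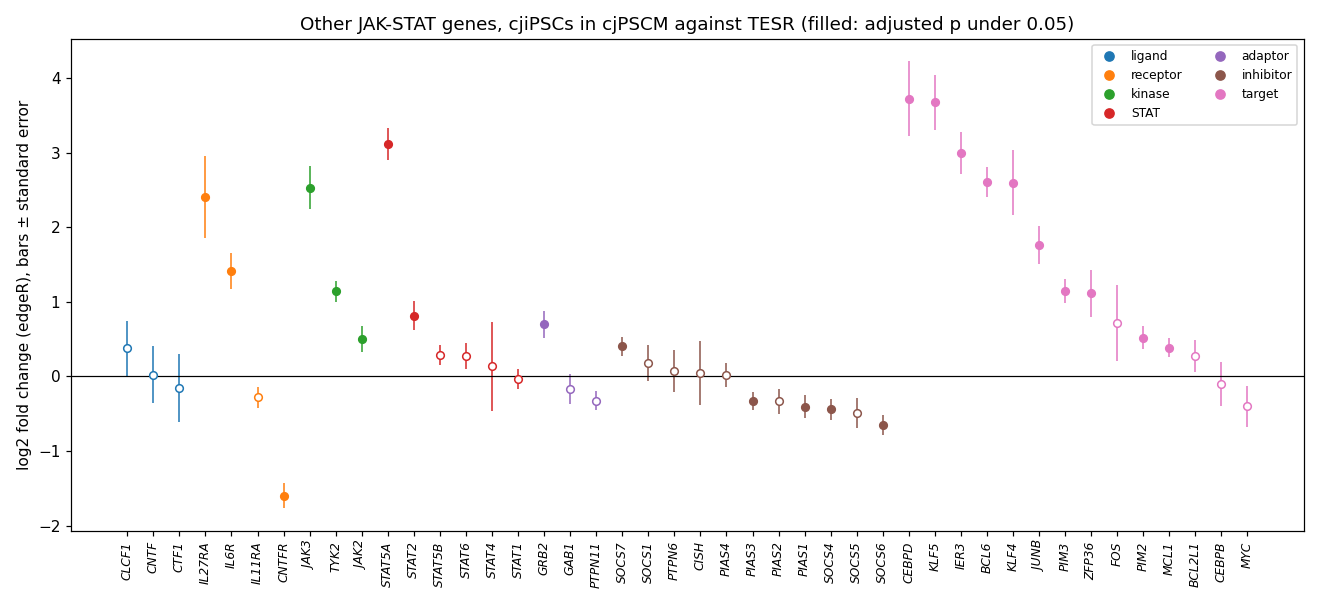
Log2 fold change (vertical axis) of 44 of the 45 further JAK-STAT genes in cjiPSCs in cjPSCM against TESR medium, coloured by role. Bars are standard errors and filled points passed an adjusted p of 0.05. The filled points of the target genes lie above 0, with CEBPD, KLF5, IER3, BCL6 and KLF4 above 2. Of the inhibitors 1 filled point lies above 0 and 4 lie below, with 0 beyond a log2 fold change of 2.

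During pre-induction SOCS1, a further feedback inhibitor, fell by a log2 fold change beyond 2 in all 4 comparisons. It had 291 and 251 normalised counts in cjPSCM and 187 and 292 in TESR cjiPSCs. In pre-ME from cjPSCM cultures it had 53.4 and 60.4 + ActA and 30.7 and 34.7 - ActA, and from TESR cultures 32.3 and 39.3 and 30.2 and 28.1. The log2 fold changes were -2.24 (adjusted p = 2.62e-05) and -3.03 (adjusted p = 1.00e-06) from cjPSCM and -2.71 (adjusted p = 1.64e-06) and -3.01 (adjusted p = 5.94e-07) from TESR cultures. Of the 45 genes, 13 passed in pre-ME + ActA from cjPSCM cultures (3 higher, 10 lower), 24 in pre-ME - ActA (6 higher, 18 lower), and 13 (8 higher, 5 lower) and 16 (3 higher, 13 lower) from TESR cultures. Of all genes 17.7%, 38.0%, 34.5% and 36.6% passed in these comparisons, so that the shares from TESR cultures were not above those of all genes.

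From cjPSCM cultures CEBPD (-2.51 (adjusted p = 0.00117) and -2.73 (adjusted p = 0.000248)) and KLF5 (-2.55 (adjusted p = 9.00e-05)) were also lower, and without ActA STAT4 (-3.94 (adjusted p = 0.00427)) and the interleukin-27 receptor gene IL27RA (-3.07 (adjusted p = 0.000687)). The immediate early gene FOS was higher there without ActA (2.78 (adjusted p = 0.000279)). From TESR cultures FOS was higher with (2.15 (adjusted p = 0.00261)) and without ActA (3.23 (adjusted p = 9.87e-05)), as was KLF4 (2.09 (adjusted p = 0.00138) and 2.02 (adjusted p = 0.00163)). IER3 (2.17 (adjusted p = 2.60e-05)) was also higher with ActA, and STAT4 (-3.77 (adjusted p = 0.00254)), MYC (-2.60 (adjusted p = 5.94e-06)) and IL27RA (-2.26 (adjusted p = 0.0314)) were lower without.

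Against their pre-ME, 27 of the 45 genes passed in cjPGCLCs + ActA (18 higher, 9 lower) and 23 - ActA (18 higher, 5 lower). In somatic cells 25 (14 higher, 11 lower) and 19 (14 higher, 5 lower) passed. Of all genes 48.4%, 40.0%, 48.0% and 42.2% passed in these comparisons. In cjPGCLCs + ActA, 3 STAT genes were higher and 3 lower, and 2 receptor genes were higher and 1 lower. In the sort, 2 of the 45 genes passed with ActA, both higher in cjPGCLCs, and 8 without, 6 of them higher and 2 lower, with 4.84% and 9.63% of all genes called. Only KLF5 and KLF4 were beyond a log2 fold change of 2. KLF5 had 1086 and 653 normalised counts in cjPGCLCs + ActA and 120.4 and 124 in somatic cells + ActA, and 2332 and 1672 and 157 and 125 without ActA, with log2 fold changes of 2.85 ± 0.36 (SE, adjusted p = 0.000178) and 3.86 ± 0.37 (SE, adjusted p = 4.66e-06). KLF4 had 229.9 and 243 and 58.4 and 29.8 with ActA and 366 and 409.8 and 46.1 and 38.7 without, with log2 fold changes of 2.45 ± 0.31 (SE, adjusted p = 0.000171) and 3.22 ± 0.32 (SE, adjusted p = 6.17e-06). For both genes the cjPGCLC libraries were above the somatic libraries in each condition.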

How the data were processed

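Poly(A) RNA libraries of 20 samples were read from a table of raw counts per gene and a table of normalised signal. Per the labels and the study's methods, the authors checked the reads with FastQC 0.11.8, aligned them to calJac4 with STAR 2.7.0a, counted reads per gene with HTSeq 0.11 and deposited these counts. The annotation release and the strand setting are not given in the sources used here. The deposited normalised signal is the count divided by the DESeq2 size factor of the library, and it is called normalised count in the text. Of the reads per library, 10.6% to 23.2% were counted outside genes and 0.268% to 0.350% were ambiguous, and these 2 lines were left out of library sizes and tests. Groups and replicate numbers were taken from the labels, 2 libraries per condition of 1 line. The p-values rest on the spread between replicate cultures of this line, estimated per gene over all 10 conditions together. As replicates of the cjPSCM cjiPSCs were furthest apart, p-values of their comparisons can be too small and those of other comparisons too large.

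The test was the quasi-likelihood F-test of edgeR 4.0.16 (R 4.3.3) after TMM normalisation and filterByExpr, in 1 model of 10 condition coefficients over all 20 libraries, with 10 residual degrees of freedom. For 19 comparisons and 4 interactions, the Benjamini-Hochberg adjustment was made over 15797 genes each. A gene passed at an adjusted p under 0.05, and the study's threshold, a log2 fold change beyond 2, was counted separately. Standard errors were taken from the log2 fold change and the F statistic. Scripts were tested on simulated data. Python 3.11.15 with pandas 2.3.3 and matplotlib 3.10.9 served for levels and figures. Alternatives were DESeq2 1.42.0, edgeR fitted to only the libraries compared, DESeq2 size factors, no filter, a filter at a mean of 1 CPM, the replicate block, and each library left out in turn. A crossed block was added after seeing the data.

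The 10 genes, the list of further pathway genes and the marker lists were chosen with earlier results of these data known. The 10 genes are named in every condition. Of the further pathway genes, those past both thresholds are named, at most the 4 largest each way in the comparisons of media, pre-induction and sort, and for SOCS3, BCL3, LIFR and GBX2 the 3 genes with a symbol and the highest correlation over condition means. Of the genes this rule names, 1 pathway gene, which stays in the counts but is not drawn, and 1 gene correlated with BCL3 are not reported here. The split of libraries by LIF in the medium, from the study's media descriptions, was chosen after the values were seen. No sequence or coordinate is given, as none of the build calJac4 was used here.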

Additional observations from a re-analysis of the deposited data

Results flagged for a closer look

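The effect of pre-induction, pre-ME against the cjiPSCs it came from, differed between cjPSCM and TESR cultures by the interaction test of edgeR for 7 genes with ActA and 4 without. The values are the log2 fold change in cjPSCM cultures minus that in TESR cultures. They also hold the difference between the cjiPSCs of both media and are not separate from it.

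With ActA the difference was 1.49 ± 0.38 (SE, adjusted p = 0.0267) for LIFR, which fell less from cjPSCM cultures, and 2.45 ± 0.62 (SE, adjusted p = 0.0265) for GBX2. It was -1.37 ± 0.27 (SE, adjusted p = 0.00603) for IL6ST, -1.82 ± 0.39 (SE, adjusted p = 0.0105) for SOCS3, -2.40 ± 0.33 (SE, adjusted p = 0.000453) for SOCS2, -1.34 ± 0.36 (SE, adjusted p = 0.0340) for OSMR and -4.62 ± 1.22 (SE, adjusted p = 0.0329) for BCL3. Without ActA it was 2.26 ± 0.36 (SE, adjusted p = 0.00135) for LIFR, -1.70 ± 0.39 (SE, adjusted p = 0.0145) for SOCS3, -1.39 ± 0.32 (SE, adjusted p = 0.0162) for SOCS2 and -5.26 ± 1.24 (SE, adjusted p = 0.0170) for BCL3.

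Of these 11 calls, LIFR without ActA and IL6ST and SOCS2 with ActA passed with every library left out and in every other alternative that used all 20 libraries. For SOCS3 the highest adjusted p with 1 library left out was 0.0516 with ActA (without pre-ME + ActA cjPSCM replicate 2) and 0.0909 without ActA (without pre-ME - ActA TESR replicate 1). For BCL3 it was 0.492 (without pre-ME + ActA TESR replicate 1) and 0.358 (without pre-ME - ActA TESR replicate 2), for LIFR with ActA 0.105 (without pre-ME + ActA cjPSCM replicate 2), for OSMR 0.184 (without pre-ME + ActA cjPSCM replicate 1), for GBX2 0.124 (without pre-ME + ActA TESR replicate 1) and for SOCS2 without ActA 0.0813 (without pre-ME - ActA cjPSCM replicate 2).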

How the results depend on the processing

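No result of the 10 genes changed its direction past the threshold under any alternative. Of 122 calls over the 10 genes, 33 were lost when at least 1 library was left out, and 27 under at least 1 of the other alternatives, mostly edgeR on the libraries of the comparison only, where 25 calls were lost and 22 gained. That fit called 3 genes (10 in the fit to all libraries) in pre-ME + ActA against cjiPSCs in cjPSCM, 6 (3) for ActA in TESR pre-ME, 10 (5) and 7 (4) between pre-ME of both media + ActA and - ActA, 5 (3) in the sort + ActA, 4 (7) in cjPGCLCs + ActA against cjiPSCs, 5 (0) for the interaction of ActA and medium, and 1 (7) and 1 (4) for pre-induction and medium. With no filter, 1 gene passed between cjPGCLCs + ActA and - ActA and 4 for ActA and medium. DESeq2 called 1 gene there, PIM1. For these alternatives the share of all genes that passed was not recorded, so the counts only show how calls of the 10 genes moved.

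The replicate numbers are not tied to a shared source in the labels, and deviations of same-numbered libraries correlated between -0.216 and 0.319. With the replicate block, 1 gene, PIM1, passed for ActA and medium, against 0 without, and no other count moved by over 1.5 times. With a crossed block, added after seeing the data, 10, 7 and 8 genes passed in pre-ME + ActA and - ActA against cjPSCM cjiPSCs and in somatic cells - ActA against pre-ME, as without a block.

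With 1 library left out, counts lay between 0 and 5 in the sort + ActA, 1 and 6 in the sort - ActA, 1 and 4 for ActA in TESR pre-ME, 2 and 5 between pre-ME - ActA of both media, 0 and 3 for ActA and medium, 3 and 8 for pre-induction and medium + ActA and 2 and 8 - ActA. The lone library of a group was assumed to vary like the other groups. BCL3 rests on 0 to 93 counts outside the cjPSCM cjiPSCs, which limits its folds.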
